A study of Mus musculus with 6 samples.

Results

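The interleukin-1 (IL-1) family genes described here are 10 genes chosen by name: the cytokine genes Il1a, Il1b, Il33 and Il18, the receptor antagonist gene Il1rn, the binding protein gene Il18bp, and the receptor genes Il1r1, Il1r2, Il1rap and Il1rl1. They were found by symbol in the deposited gene table, where each symbol stood on 1 row, and they are 10 of its 21958 gene rows. The table comes from poly(A)-selected RNA-seq of RAW264.7, a single mouse line with macrophage properties. There were 3 libraries of cells given lipopolysaccharide (LPS), the Gram-negative bacterial membrane component that activates macrophages, and 3 of cells given LPS and co-cultured with BMSCs (a common short form of bone marrow stromal cells). The LPS dose, the times, the species of the BMSCs, whether the cells touched and whether they were separated before RNA extraction are not given in the sample labels. The series title names a rat model, and RNA of the BMSCs in the co-culture libraries cannot be told apart by these counts. All 6 libraries had LPS, so no value here is a response to LPS, and the bFGF and printed scaffold named in the design text are in no sample label. The labels call the replicates biological without saying what separates them, and the title of LPS replicate 3 writes the line as RAW264.9, so the p-values measure the spread between these libraries only.

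IL-1 alpha and IL-1 beta act through the receptor IL-1R1 (Il1r1) together with the accessory chain IL-1RAP (Il1rap). IL-1Ra (Il1rn) occupies IL-1R1 without starting a signal, and IL-1R2 (Il1r2) is a decoy that binds IL-1 but lacks a signalling domain. IL-33 signals through ST2 (Il1rl1) with the same accessory chain, and IL-18 is held back by IL-18BP. In macrophages, LPS induces the IL-1 beta precursor, which an inflammasome protease then cuts, so the transcript is not a measure of the released cytokine.

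The libraries held 17716460 to 22539884 counts, and the detection floor of 3 counts lay between 0.133 and 0.169 CPM (counts relative to library size). Levels given as CPM were scaled by TMM, a normalization that assumes most genes do not change, and levels given as FPKM are per length as the authors deposited them. In all 6 libraries the macrophage markers were high, at a summed 20000 to 20370 CPM with LPS and 28310 to 30940 CPM in co-culture, and all 12 were detected. Lyz2 and Cd14 made up most of that sum. Of the 12, 6 were called higher, 2 lower (Ptprc at log2 -0.93 and Mpeg1 at -0.84) and 4 not called, with a median log2 fold change of 0.28, or 0.08 under a fit with an offset for the length and GC content of each gene. Among 16 stromal markers the sum was 12.8 to 14.3 CPM with LPS and 19.4 to 22.4 CPM in co-culture. Of these, Acta2, a smooth muscle actin that many cell types express, made up most and rose (log2 0.85, adjusted p 3.43e-05 in the edgeR test), and Lum, a matrix proteoglycan gene, fell (log2 -1.41, adjusted p 0.0111). Dcn, another proteoglycan gene, did not pass (log2 -0.03, adjusted p 0.908), and Col1a2, Col3a1, Col6a1, Thy1, Postn and Cxcl12 had 0 counts in every library. Neutrophil markers summed to 1.24 to 1.63 CPM with LPS and 2.93 to 4.68 CPM in co-culture, and lymphocyte markers to 4.35 to 5.28 and 4.86 to 6.47 CPM. Among the former, Camp rose (log2 2.40, adjusted p 2.46e-05 in the edgeR test) and Mmp8 fell (log2 -1.09, adjusted p 0.0134). The other neutrophil markers had at most 1 count in any library. Of the lymphocyte markers, Gata3 did not pass (log2 0.16, adjusted p 0.349) and Cd79a had 4 to 8 counts. These are counts of mouse genes and do not show whether reads of another species were present. Co-culture replicates differed more among themselves (a chi-square of 5.16 to 26.8 for each degree of freedom, by pair) than LPS replicates did (1.71 to 2.11). Fewer cells expressing a gene and less RNA per cell cannot be told apart in these bulk libraries.

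With co-culture, transcripts of all 4 cytokine genes and of the antagonist were higher, the receptor chains Il1rl1 and Il1rap were lower, and Il18bp did not pass the test. The rise of Il18 did not pass under the length and GC offset (log2 0.16, adjusted p 0.0634 in the edgeR test). Of the 10 members, 9 had enough counts to be tested, and Il1r2 was not tested. By edgeR's quasi-likelihood test at an adjusted p of 0.05, 6 were called higher and 2 lower. Il1r1 was among the 9 and the 6 only through its co-culture counts. With at least 10 counts asked of every library, which left Il1r1 out, 8 members were tested, 5 called higher and 2 lower. Across the 11103 genes tested, 37.5% were called higher and 38.0% lower, 75.5% in either direction, so a call by itself is the usual outcome here. The median log2 fold change was 1.01 over the 9 members, Il1r1 included, and 0.001 over all tested genes. The groups did not overlap for 8 members, Il1r1 included, and did not overlap for 80.2% of all tested genes. By size, the largest change was that of Il33, which ranked 33 among all tested genes by size of change, and the smallest called one that of Il18, which ranked 3799.

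**Figure D1:**
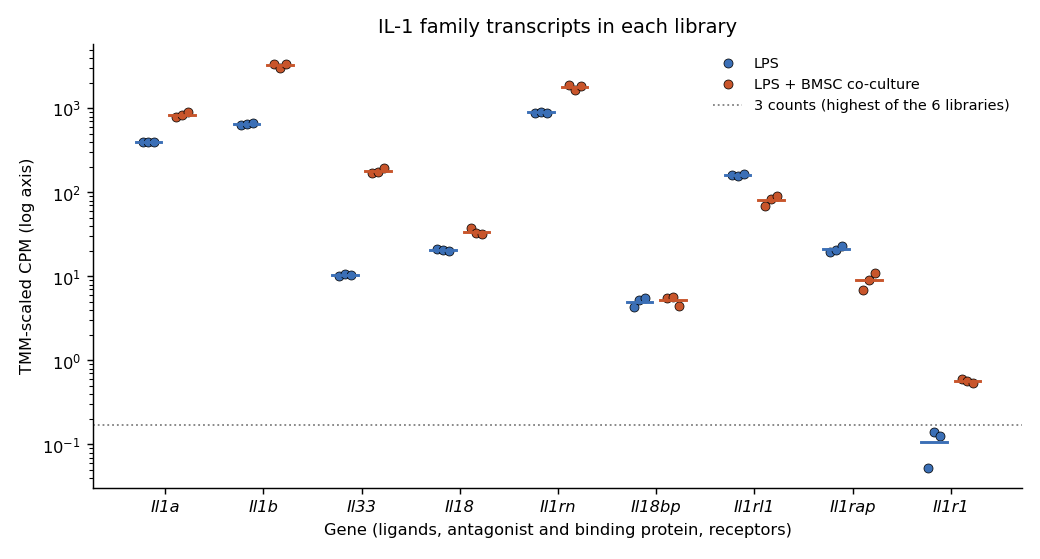
TMM-scaled CPM on a log axis of 9 members in each of the 6 libraries (points) with group means (bars); Il1r2, at 0 counts in 5 libraries, is left out, and the dotted line marks 3 counts in the shallowest library. Il33 shows the widest gap between groups, Il18bp overlaps, and Il1r1 lies at or under the floor with LPS alone.

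Promoter sequences show where the start regions of the changed genes differ in base composition and short motifs. RefSeq (build GRCm38.p6) gave 15 starts for the 10 members, and the gene counts do not show which start was used. The 250 bases before a start are printed 5′ to 3′ on the gene's strand for 6 genes, 3 of the 4 rising cytokines, the antagonist and the falling receptor chains. The window of Il18, whose call was lost under the length and GC offset, is not printed and held no match to any of the motifs below, at a GC content of 35.6%. Capitals mark matches to 6 motifs, searched on both strands except the TATA box, which was searched on the gene's strand: κB, AP-1 (TGANTCA), CRE (TGACGTCA), C/EBP (TTGCNNAA), an ISRE core (GAAANNGAA) and the TATA box (TATAAA).
Il1b (chr2:129371140-129371389, minus strand): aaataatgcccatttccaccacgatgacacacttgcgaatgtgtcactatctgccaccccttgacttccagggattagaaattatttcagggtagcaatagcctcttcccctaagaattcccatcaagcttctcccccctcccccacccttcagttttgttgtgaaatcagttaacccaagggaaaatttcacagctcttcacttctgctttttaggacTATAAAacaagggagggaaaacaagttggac
Il1a (chr2:129309973-129310222, minus strand): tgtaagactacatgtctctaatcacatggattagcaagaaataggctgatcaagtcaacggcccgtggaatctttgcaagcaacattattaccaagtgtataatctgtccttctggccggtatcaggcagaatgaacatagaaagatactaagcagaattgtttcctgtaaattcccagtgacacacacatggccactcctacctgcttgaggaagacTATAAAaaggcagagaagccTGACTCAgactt
Il33, the second of 2 starts (chr19:29945540-29945789, plus strand): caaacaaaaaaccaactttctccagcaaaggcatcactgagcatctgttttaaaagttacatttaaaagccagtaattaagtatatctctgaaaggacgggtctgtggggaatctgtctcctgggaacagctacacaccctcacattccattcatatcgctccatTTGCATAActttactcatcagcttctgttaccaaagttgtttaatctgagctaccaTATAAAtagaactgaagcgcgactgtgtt
Il1rn, the first of 3 starts (chr2:24336610-24336859, plus strand): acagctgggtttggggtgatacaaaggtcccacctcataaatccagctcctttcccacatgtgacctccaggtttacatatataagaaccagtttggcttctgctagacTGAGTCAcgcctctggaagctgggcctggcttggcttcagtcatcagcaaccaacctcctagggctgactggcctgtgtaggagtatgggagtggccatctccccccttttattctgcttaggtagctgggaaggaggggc
Il1rl1, the first of 2 starts (chr1:40429320-40429569, plus strand): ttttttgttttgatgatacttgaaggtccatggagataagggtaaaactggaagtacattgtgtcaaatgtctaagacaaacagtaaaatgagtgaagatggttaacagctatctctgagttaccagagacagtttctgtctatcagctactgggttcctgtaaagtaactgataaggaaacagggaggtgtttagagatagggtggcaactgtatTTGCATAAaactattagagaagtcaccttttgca
Il1rap (chr16:26581455-26581704, plus strand): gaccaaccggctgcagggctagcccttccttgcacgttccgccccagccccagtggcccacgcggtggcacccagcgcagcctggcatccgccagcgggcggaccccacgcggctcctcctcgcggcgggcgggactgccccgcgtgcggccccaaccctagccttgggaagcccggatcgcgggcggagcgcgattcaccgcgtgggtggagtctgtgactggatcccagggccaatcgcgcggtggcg

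In these windows a TATA box began 31 bases before the start of Il1b, 32 bases before that of Il1a and 29 bases before the second start of Il33. Of 32851 such windows of all genes, 7.59% held TATAAA anywhere and 1.75% held it 25 to 35 bases before the start. The first Il33 start, not printed, held TATAAA only 203 bases before it. The windows of Il1a and of the first Il1rn start each held an AP-1 motif (6.75% of all windows), 12 and 141 bases before the start. The other Il1rn starts and the second Il1rl1 start, not printed, held no match to any of the 6 motifs. The windows of the second Il33 start and the first Il1rl1 start held a C/EBP motif (9.56% of all windows), 85 and 34 bases before the start, and those 2 genes changed in opposite directions. Il1rap had no match and a GC content of 74.4%, against 44.4% for Il1b, 42.4% for Il1a, 37.6% for Il1rl1 and a median of 52.4% over all windows. No κB (7.25% of all windows), CRE (1.55%) or ISRE core (7.13%) match lay in the 6 printed windows, which says only that these letters are absent there. No match overlapped another, and for each printed gene with several starts the window printed was the one with the most matches.

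Il1b, the gene of the inflammatory cytokine IL-1 beta, was the most abundant member per length in both groups and rose 4.997-fold. With LPS alone its CPM was 641.6, 649.7 and 662.5, and co-culture gave 3367, 3033 and 3362, in order of replicate number. Every co-culture library lay far above every LPS library, and the groups did not overlap. The log2 fold change was 2.32 (SE 0.06), at an adjusted p of 6.64e-09 (edgeR). Il1b (ENSMUSG00000027398) lies on chromosome 2 from 129364570 to 129371139 in GRCm38 and is protein coding. An antisense gene, Il1bos, overlaps 1243 bases of it and has no row in the table, so where strand was not used in counting its reads would fall to Il1b.

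Il1a encodes IL-1 alpha, which shares the IL-1 beta receptor and also works as an alarmin released from damaged cells. It stood at 399.5, 399.4 and 403.3 CPM with LPS and 799.7, 825.1 and 912.0 CPM in co-culture. The LPS libraries were almost equal, the co-culture libraries spread more, and all of them were higher. The gene rose 2.11-fold (log2 1.08, SE 0.06, adjusted p 5.87e-07 in the edgeR test). Il1a (ENSMUSG00000027399) lies on chromosome 2 from 129299610 to 129309972, on the same strand as Il1b and close to it. Gm14023 on the other strand overlaps 8217 bases of it and has no row in the table, so the same limit on strand applies.

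Il33, an alarmin held in the nucleus and best known from stromal, epithelial and endothelial cells, had the largest change of the family. Its CPM was 10.1, 10.8 and 10.3 with LPS and 169.8, 177.6 and 197.4 in co-culture. Every co-culture library lay far above every LPS library. The fitted difference was 17.5-fold (log2 4.12, SE 0.08, adjusted p 1.37e-09 in the edgeR test). Il33 (ENSMUSG00000024810) lies on chromosome 19 from 29925114 to 29960718, and no other annotated gene overlaps it. Since stromal and endothelial cells are known sources of IL-33, their markers are given beside it. Of the 16 stromal markers, 9 had under 3 counts in every library, and Col1a1 and Pdgfra had at most 1 count in any. Of the detected ones, Acta2, the most abundant, had 203 to 239 counts with LPS and 318 to 409 in co-culture. Dcn had 24 to 43 counts in all libraries, and Lum had 13 to 26 with LPS and 7 to 8 in co-culture. The stromal list summed to 12.8 to 14.3 CPM with LPS and 19.4 to 22.4 CPM in co-culture. The 7 endothelial markers summed to 2.55 to 3.19 CPM with LPS and 5.08 to 5.97 CPM in co-culture, with Cldn5 and Emcn at 0 counts in all 6 libraries. Pecam1, which myeloid cells also express, was higher in co-culture (log2 1.57, adjusted p 0.000113 in the edgeR test). Cdh5 (log2 -0.79, adjusted p 0.0837) and Vwf (log2 0.54, adjusted p 0.141) did not pass that test. Kdr had at most 4 counts in any library and Tek at most 1. The part of these markers in the Il33 result was not tested.

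Il18, whose product drives interferon gamma production by lymphocytes, changed least among the cytokine genes. It was at 21.1, 20.8 and 20.3 CPM with LPS and 37.8, 33.2 and 31.9 CPM in co-culture. The groups did not overlap, and co-culture replicate 1 was the highest. The gene was 1.65-fold higher (log2 0.72, SE 0.08, adjusted p 2.62e-05 in the edgeR test), but the call was lost under the length and GC offset, which takes out a trend of fold changes with both properties (log2 0.16, adjusted p 0.0634). Il18 (ENSMUSG00000039217, chromosome 9 from 50554827 to 50581840) overlaps Tex12 and Bco2 on the other strand, which stood at 0.0512 and 8.23 CPM with LPS and at 0.118 and 8.28 CPM in co-culture.

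Il1rn, the gene of the antagonist, rose by a smaller factor than Il1b. It was at 892.7, 913.6 and 893.2 CPM with LPS and 1923, 1666 and 1831 CPM in co-culture. All co-culture libraries were higher, with replicate 2 the lowest of them. The gene rose 2.01-fold (log2 1.01, SE 0.06, adjusted p 8.96e-07 in the edgeR test). Il1rn (ENSMUSG00000026981) lies on chromosome 2 from 24336853 to 24351494. Secreted and intracellular forms of the antagonist begin at different starts, and gene counts do not separate them.

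Il18bp, whose secreted product captures IL-18, was low in both groups and did not pass the test. It was at 4.297, 5.19 and 5.47 CPM with LPS and 5.58, 5.68 and 4.42 CPM in co-culture, and the groups overlapped. Its log2 fold change of 0.06 had an SE of 0.15 (adjusted p 0.706, edgeR), and its sign was not stable, at -0.14 under the length and GC offset. Il18bp (ENSMUSG00000070427, chromosome 7 from 102014885 to 102018690) shares 80 bases with Numa1 on the other strand, which stood at 116.1 CPM with LPS and 76.3 CPM in co-culture.

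Il1rl1, the gene of the IL-33 receptor ST2, was the most abundant receptor gene among the members and fell 1.98-fold. It stood at 163.1, 156.5 and 166.1 CPM with LPS and 69.7, 83.8 and 91.9 CPM in co-culture. The groups did not overlap, and co-culture replicate 1 was the lowest library. Its log2 fold change was -0.98 (SE 0.09, adjusted p 7.13e-06 in the edgeR test). Under the length and GC offset it was -0.48 (adjusted p 1.04e-05). The gene (ENSMUSG00000026069, chromosome 1 from 40429570 to 40465415) makes a membrane and a soluble form of ST2, which the counts do not separate. ST2 is also a mast cell product, and of 9 mast cell markers Cpa3, Mcpt4, Tpsb2, Fcer1a and Ms4a2 were at 0 counts in every library. Hdc, the histidine decarboxylase gene that macrophages express too, carried the list's summed 34.0 to 38.6 CPM with LPS and 55.9 to 64.4 CPM in co-culture. Kit had at most 5 counts in any library.

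Il1rap, the chain shared by the receptors for IL-1 and IL-33, fell 2.35-fold. It was at 19.8, 20.4 and 22.8 CPM with LPS and 6.82, 9.11 and 11.0 CPM in co-culture. No co-culture library reached the lowest LPS library, though they varied among themselves by 23.2% (coefficient of variation), against 7.59% from counting alone. The log2 fold change was -1.23 (SE 0.15, adjusted p 3.68e-05 in the edgeR test), and -0.49 (adjusted p 0.00168) under the length and GC offset. Il1rap (ENSMUSG00000022514, chromosome 16 from 26581704 to 26730117) is the longest member in the table, at 11360 bases, and its membrane and soluble forms are not separated. An antisense gene without a row, Gm20319, overlaps 15672 bases of it.

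The receptors for IL-1 itself were near or under the detection floor. Il1r1, the signalling receptor, had 1, 3 and 3 counts with LPS alone and 12, 11 and 10 counts with co-culture. It entered the test only through its co-culture counts, so nothing is read from its call (adjusted p 0.000887 in the edgeR test). Its counts summed to 7 with LPS and 33 in co-culture, and no fold change is read from them for the same reason. Il1r1 stood at 0.565 ± 0.0323 CPM in co-culture (mean ± SD, n = 3), against 0.107 ± 0.0475 CPM with LPS. Il1r2, the decoy receptor, had 0 counts in every LPS library and 2, 0 and 0 in co-culture, so it was not detectable at this depth in either group. Both lie on chromosome 1, Il1r1 (ENSMUSG00000026072) from 40225080 to 40317257 and Il1r2 (ENSMUSG00000026073) from 40074079 to 40125231.

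The order of the members per length changed mainly through Il33 and Il1rl1. With LPS alone the mean FPKM was 363.3 for Il1b, 216.0 for Il1a, 172.9 for Il1rn, 24.98 for Il1rl1, 21.4 for Il18, 3.83 for Il33, 1.97 for Il1rap and 1.75 for Il18bp. Neighbours in that order did not overlap, except Il1rap and Il18bp. In co-culture it was 1604 for Il1b, 403.0 for Il1a, 306.6 for Il1rn, 59.2 for Il33, 31.2 for Il18, 11.2 for Il1rl1, 1.62 for Il18bp and 0.745 for Il1rap, with no overlap between neighbours. Il33 thus moved from rank 6 to rank 4 and Il1rl1 from rank 4 to rank 6. The 10 genes together took 0.229% to 0.232% of all counts in the LPS libraries and 0.557% to 0.613% in co-culture, where the highest value had an exact 95% interval of 0.609% to 0.616% for counting error. Of the family's summed FPKM, Il1b made up 44.8% to 45.45% with LPS and 65.8% to 67.2% in co-culture. Il1rn made up 21.1% to 21.8% and then 12.4% to 13.2%, and Il33 0.465% to 0.494% and then 2.24% to 2.56%.

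**Figure D2:**
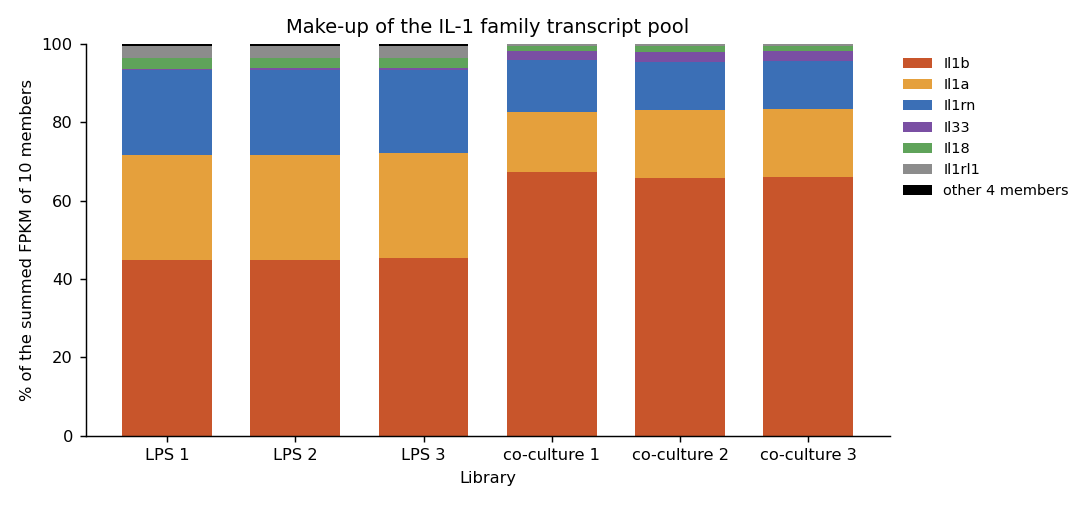
Stacked bars give percentages of the summed FPKM of the 10 members in each library. Il1b, Il1a, Il1rn, Il33, Il18 and Il1rl1 are drawn separately and the other members together. The Il1b part is 44.8% to 45.45% in the LPS libraries and 65.8% to 67.2% in the co-culture libraries, and the Il1rn and Il1a parts are smaller in co-culture.

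Ratios within a library, which do not depend on library scaling, set each ligand beside its partner. Of 6 planned pairs, 5 were computed, and Il1r2 to Il1r1 was not because of its low counts. The Il1b to Il1rn ratio of FPKM was 2.09, 2.06 and 2.15 with LPS and 5.08, 5.28 and 5.33 in co-culture, a 2.49-fold rise of the ratio. Of this log2 difference of 1.32, 0.59 was left once the length and GC trend was removed. The Il1a to Il1rn ratio was 1.25 ± 0.0207 and 1.32 ± 0.131 (mean ± SD, n = 3 each), with overlapping groups and an exact permutation p of 0.4. Its sign turned with the trend taken out, from 0.07 to -0.42 on the log2 scale, where the exact permutation p was 0.1. Relative to Il1b, Il1a was lower in co-culture, at a ratio of 0.251 ± 0.0191 against 0.595 ± 0.0067.

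The Il33 to Il1rl1 ratio moved most, the ligand having risen and its receptor fallen. It was 0.148, 0.165 and 0.148 with LPS and 5.82, 5.06 and 5.13 in co-culture, 34.7-fold higher, or 26.5-fold with the trend taken out. The receptor transcript was thus the more abundant per length in every LPS library and the ligand transcript in every co-culture library. The Il18 to Il18bp ratio was 12.4 ± 1.83 and 19.4 ± 2.06, without overlap, a 1.57-fold difference. With the trend taken out this shrank to 1.22-fold, at an exact permutation p of 0.2. Before the trend was taken out, the two-sided exact permutation p was 0.1 for each pair but Il1a to Il1rn. That is the smallest that 3 against 3 libraries can give, and it became 0.125 after Benjamini-Hochberg adjustment over the 5 pairs.

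**Figure D3:**
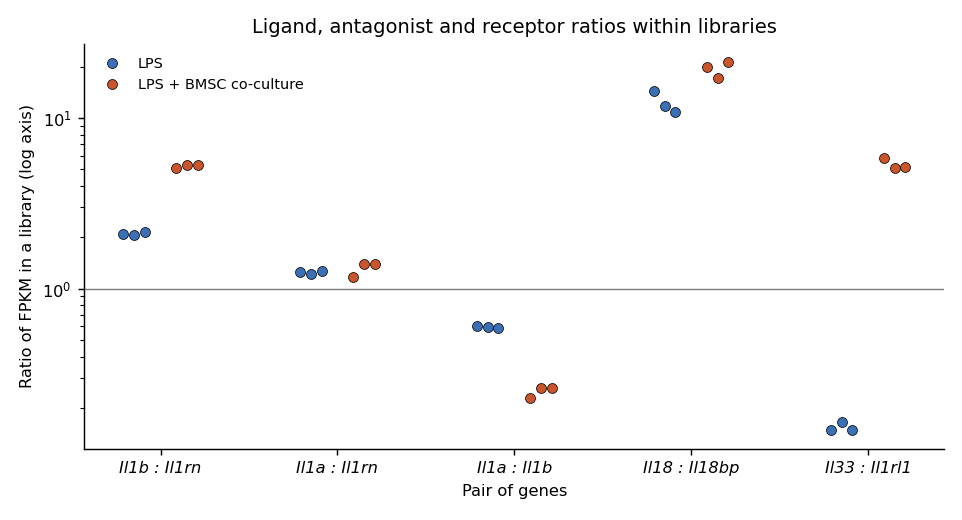
Ratio of deposited FPKM of the members in each pair on a log axis, 1 point per library, with a line at equal levels. The Il33 to Il1rl1 points cross the line between groups, the Il1b to Il1rn points rise from about 2.1 to above 5, and the Il1a to Il1rn points overlap.

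Fold changes in this comparison followed gene length, which bears on several members. In 10 bins of tested genes by length, the median log2 fold change fell from 0.73 in the shortest bin to -0.64 in the longest. The table's gene length is 1031 bases for Il18, 1907 for Il1b, 1974 for Il1a, 2886 for Il33, 5535 for Il1rn, 6894 for Il1rl1 and 11360 for Il1rap. The trend fitted to length and GC content amounted to 0.57 for Il18, 0.25 for Il1b, 0.02 for Il1a, -0.12 for Il33, -0.47 for Il1rn, -0.51 for Il1rl1 and -0.75 for Il1rap. With it taken out, Il1rn grew to a log2 fold change of 1.48 and Il33 to 4.24, and Il1b fell to 2.07. What the trend comes from was not tested. With library totals in place of TMM, the median of all genes shifted to -0.18, and the 8 called members, Il1r1 among them, kept their direction and their call.

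**Figure D4:**
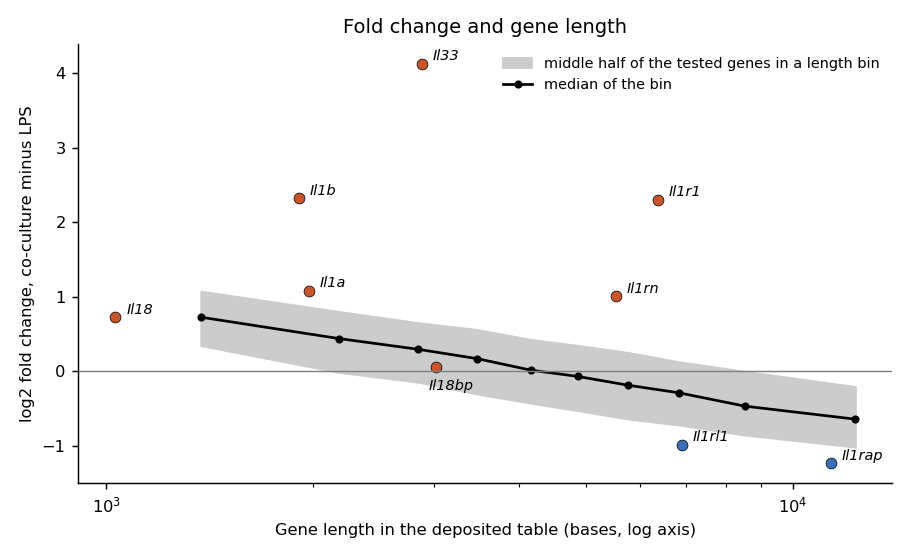
Log2 fold change (co-culture minus LPS) against gene length on a log axis for the 9 tested members (points), with the median (line) and the middle 50% (band) of all tested genes in 10 length bins. Il33, Il1b, Il1r1, Il1rn and Il1a lie above the band, Il18bp lies inside it, Il18 is at the level of the median of the shortest bin, and Il1rl1 and Il1rap lie just under the band.

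**Figure D5:**
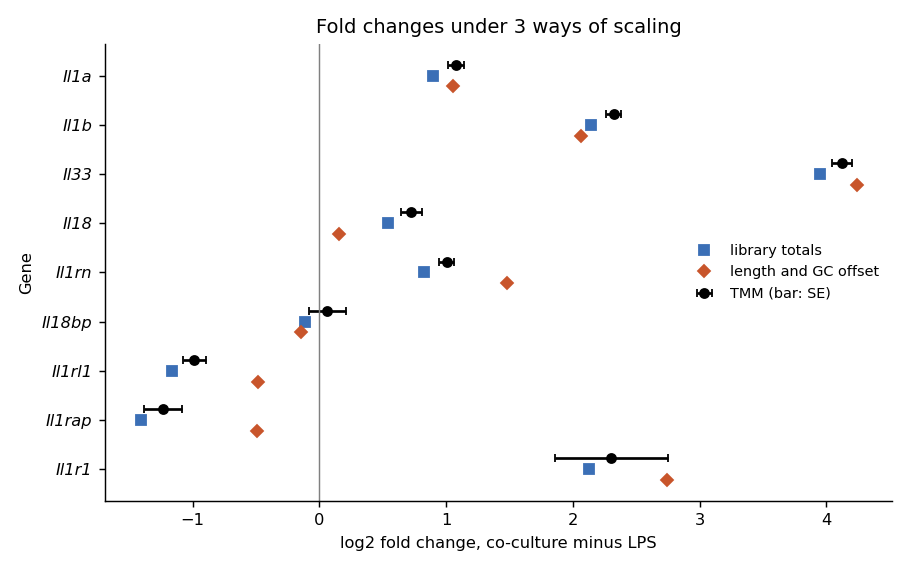
Log2 fold change of the 9 tested members with TMM scaling (circles, bars give the SE), with library totals (squares) and with the length and GC offset (diamonds). Il18, Il1rap and Il1rl1 move toward 0 with the offset, Il1rn moves away from it, and Il18bp changes sign.

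Few other genes of the family were expressed. Of the remaining ligand genes, 5 were in the table and 2 could be tested, and both rose. Il36a, an IL-36 agonist of epithelial and myeloid cells, had 192, 243 and 239 counts with LPS and 2135, 1564 and 1589 in co-culture, an 8.55-fold rise (log2 3.10, adjusted p 1.02e-07 in the edgeR test), or log2 2.45 under the length and GC offset. Il36g, another IL-36 agonist, rose 2.24-fold, from 80.7 ± 0.716 to 180.7 ± 9.86 CPM. The IL-36 antagonist gene Il36rn had at most 3 counts in any library, Il36b and Il1f10 had none, and their receptor gene Il1rl2 had at most 3. Of 6 other receptor genes, 3 could be tested. Il18rap, the second chain of the IL-18 receptor, was at 88.0 ± 1.34 CPM with LPS and 74.3 ± 0.929 CPM in co-culture (log2 -0.24, adjusted p 0.00171 in the edgeR test), but under the length and GC offset it was higher in co-culture (log2 0.18, adjusted p 0.00801). Il18r1, its ligand-binding chain, and Sigirr, an inhibitory receptor, did not pass.

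Beyond the family, the lists of genes that process the cytokines, carry the receptor signal or restrain it were split in direction. Their calls stand beside the 37.5% of all tested genes called higher and the 38.0% called lower with TMM, so the counts of calls say nothing particular to the lists. With library totals 8406 of 11103 genes were called, and 38.3% of those calls were higher. Under the length and GC offset 7914 of 11072 genes were called, and 49.6% of those calls were higher. Of 16 tested genes for processing and release, 9 rose and 2 fell (median log2 0.31), against 9 and 0 under the length and GC offset and 8 and 5 with library totals. Nlrp3, the inflammasome sensor, rose 1.71-fold, Casp4, the mouse caspase-11 gene, 1.84-fold, Txnip, an NLRP3-binding protein, 2.36-fold and S100a10, an annexin A2 partner, 2.49-fold (log2 1.32, or 0.54 under the offset). Of 26 genes of receptor signalling, 6 rose and 14 fell (median -0.30), against 8 and 10 under the offset (median 0.02) and 5 and 18 with library totals (median -0.48). Chuk, the kinase IKK alpha, fell 1.98-fold, the adaptor Tab3 1.98-fold and the ubiquitin ligase Traf6 by 0.58 on the log2 scale, whereas the NF-kB subunit Rela rose 1.88-fold. With the trend taken out, the log2 fold change went from -0.99 to -0.55 for Chuk, from -0.99 to -0.425 for Tab3 and from 0.91 to 0.46 for Rela. The fall of Traf6 did not pass there (adjusted p 0.103 in the edgeR test). Of 13 feedback inhibitors, 9 rose and 2 fell (median 0.82, or 0.49 with the trend taken out), led by Nfkbie (3.55-fold), Dusp1 (3.49-fold), Zfp36 (2.12-fold) and Zc3h12a (1.99-fold).

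The genes whose profile over the 6 libraries was nearest to that of Il1b, by root mean square difference of centred log2 CPM among 8615 genes, were Cstdc4 (0.072), Osm (0.082), Fam162a (0.085), Syt7 (0.099) and Mmp9 (0.099). Nearest to Il33 were Thbs1 (0.098), Tnfrsf9 (0.123), S100a8 (0.138), Lif (0.197) and Dgat2 (0.231). With 2 groups, this likeness is mostly a like size of difference between them.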

How the data were processed

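RNA-seq libraries of RAW264.7 cells were grouped by sample title, 3 with LPS and 3 with LPS and BMSC co-culture. Per the submitters' processing notes, reads were aligned with HISAT2 2.0.5 to mm10; no counting tool, annotation or strand setting is recorded there. The authors deposited whole-number read counts per gene, not normalized, and FPKM, which match a scaling of each count by gene length and column total (implied totals within 12 counts). The table's start positions equal those of GENCODE M21 for only 517 of 21850 shared identifiers, so positions here come from M21 (GRCm38) by identifier, and none from the table.

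Groups were compared by edgeR's robust quasi-likelihood test (version 4.0.16 in R 4.3.3) after TMM scaling and the default expression filter, with group as the only term, adjusted by Benjamini-Hochberg over 11103 genes. It was tested on simulated counts with few genes changed, the same spread for all genes and no length trend. That simulation does not cover the many calls, the length trend or the uneven replicate spread of these data. Ratios used the deposited FPKM and exact permutation tests (scipy 1.17.1). Alternatives were RLE factors, library totals, DESeq2 1.42.0, limma 3.58.1 applied to log2(FPKM + 1) where FPKM averaged at least 1, no filter, a floor of 10 counts per library, protein-coding genes only, a replicate block, leaving out each library, and an offset from splines (5 degrees of freedom) of gene length and GC content. The members and lists were chosen with earlier results of these data known. Named genes were all members, up to 4 tested genes per list by smallest p, the 2 most abundant markers of a list, and the 5 genes nearest in profile to Il1b and Il33; untested family genes and other markers were named after their values were seen, and motifs were chosen after the sequences were. Reads carry no molecular identifiers, so intervals and floors cover counting error only.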

Additional observations from a re-analysis of the deposited data

How the results depend on the processing

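Across the 15 alternatives, Il1a, Il1b, Il33, Il1rn, Il1rap and Il1rl1 kept their direction and their call in every one. Il1r1, which the expression filter let in only through its co-culture counts, is not counted here, and the filters on 10 counts per library and on mean FPKM removed it. The log2 fold change ranged from 2.07 to 2.38 for Il1b, 3.64 to 4.24 for Il33, 0.82 to 1.48 for Il1rn, -1.41 to -0.49 for Il1rap and -1.16 to -0.48 for Il1rl1. Il18 lost its call with the length and GC offset only. Il18bp, never called, turned its sign with library totals (-0.115), the length and GC offset (-0.142), limma on FPKM (-0.069) and without LPS replicate 1 (-0.032), and leaving out single libraries gave -0.032 to 0.174. With Il1r1 counted wherever it was tested, 5 or 6 members were called higher and 2 lower throughout. Over all genes, 7572 to 8574 were called, and 49.6% of calls were higher with TMM, 38.3% with library totals and 39.1% on FPKM. The log2 Il1a to Il1rn ratio turned from 0.072 to -0.424 when the same trend was removed from each library, an alternative chosen after seeing the data; the other 4 ratios kept their sign under every alternative. The causes were not tested. Replicate numbers gave no sign of a pairing of the libraries (correlation of same-numbered deviations -0.042, -0.024 and 0.04). LPS replicates differed little among themselves (chi-square of 1.71 to 2.11 for each degree of freedom), so these correlations cannot exclude a pairing. With the replicate numbers as a block 8217 genes were called, with 6 members higher, Il1r1 among them, and 2 lower. The log2 Il1b to Il1rn difference stayed at 1.317. Depth leaves Il1r1 and Il1r2 without a firm level in the LPS libraries.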
